A study of Mus musculus with 12 samples.

Results

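The core circadian clock genes were followed through RNA-seq of mouse muscle satellite cells. The set held 10 genes, namely Arntl, Clock, Per1, Per2, Per3, Cry1, Cry2, Nr1d1, Nr1d2 and Dbp, chosen by symbol, and all 10 were found among the 55401 genes of the count table and among the 25771 genes with enough reads to test. Satellite cells are the resident stem cells of skeletal muscle, and they were sorted from hind limb muscle as cells carrying the Pax7-ZsGreen reporter. All mice had floxed Cxcr4 alleles (CXCR4 FL/FL) and Pax7-ZsGreen, and the labels give tamoxifen at 80 mg/kg on 5 days. The KO mice also carried Pax7-creERT2, which removes Cxcr4, the receptor for the chemokine CXCL12, only in cells that express Pax7, and the WT mice lacked cre. There were 4 WT and 4 KO libraries of freshly sorted cells, called quiescent, and 2 WT and 2 KO libraries of cells cultured overnight, called activated. The hour at which the mice were killed is not given in the sources used here, so no position in the daily cycle was assigned to any library.

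The molecular clock is a feedback loop of transcription. ARNTL (BMAL1) pairs with CLOCK and drives the Per and Cry genes, whose proteins return to the nucleus and repress ARNTL and CLOCK, while NR1D1 and NR1D2 (REV-ERB alpha and beta) repress Arntl and Clock in a second loop. Dbp is a direct target of ARNTL and CLOCK that is often read as the output of the clock, and in a tissue with a running clock Arntl and Dbp peak at opposite times of day. Per1 and Per2 also respond quickly to signals from outside the cell, through cyclic AMP and glucocorticoids.

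Short stretches of promoter are shown because they hold letters that match the binding motifs of factors in these loops. Promoters (250 bases before to 50 after a start site, RefSeq, GRCm38.p6) were found for 9 of the 10 genes, 13 promoters in all. The E-box of ARNTL and CLOCK (CACGTG) was present in 7.15% of all 32851 promoters of that length, the D-box of DBP (TTATGNAA) in 3.38%, the motif of the NR1D and ROR receptors (AGGTCA) in 16.3% and the core of the cyclic AMP response element (TGACGT) in 7.51%, each searched on both strands. Among the 13 clock gene promoters these were found in 2, 2, 4 and 1, respectively. Each line gives the 30 bases around a match on the strand of the gene, with the motif in capitals. The examples were taken for Per1 and Cry1, and for Arntl, the target of the NR1D proteins. As described below, Per1 was called lower in activated cells of both genotypes and Cry1 in WT only. A match is a description of the sequence, and binding was not measured.
Cry1 E-box, chr10:85185097-85185126, minus strand: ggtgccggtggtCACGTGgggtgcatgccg
Per1 E-box, chr11:69098771-69098800, plus strand: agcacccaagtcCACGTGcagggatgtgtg
Per1 D-box, chr11:69098914-69098943, plus strand: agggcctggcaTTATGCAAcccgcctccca
Per1 cyclic AMP motif at another start site, chr11:69100008-69100037, plus strand: gagctcagcggcTGACGTcggtttccctgg
Arntl receptor motif, chr7:113207530-113207559, plus strand: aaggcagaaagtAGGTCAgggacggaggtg

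Per1 thus held an E-box 166 bases before its start site and a D-box 24 bases before it. At 132 bases before another start site it held the core of the cyclic AMP response element (TGACGT), which is a half-site. The motif in Arntl lay 32 bases after the start.

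The quiescent libraries held 12775593 to 23717013 counts and the activated libraries 3172164 to 5427280, of which 0.295 to 0.807% and 11.5 to 40.3%, respectively, fell on the ribosomal RNA-like gene CT010467.1. Cxcr4 averaged 80.5 CPM (counts per 1000000 counts, TMM-scaled) in WT and 17.1 in KO quiescent cells (adjusted p = 0.00477), and 23.9 and 9.54 in activated cells (adjusted p = 0.381). The 8 satellite cell markers measured were present in both states, at 3110 to 6640 summed CPM in quiescent and 2350 to 3160 in activated cells. The exception was Calcr, which had 0 counts in KO activated 1. Myod1 and Des made up most of these sums, with WT means of 1780 and 1180 CPM in quiescent cells. Their WT means in activated cells were 1520 and 703. The other markers had lower means in activated cells of both genotypes. In WT, Pax7 went from 392 to 109 CPM, Myf5 from 128 to 9.97 and Vcam1 from 335 to 44.4. Calcr went from 95.2 to 2.13 CPM, Cdh15 from 167 to 52.2 and Itga7 from 332 to 261. The summed CPM of 6 mature muscle fibre genes was 232 to 819 in quiescent and 5490 to 13500 in activated libraries, that of 6 endothelial genes 222 to 986 and 89.8 to 647, and that of 9 immediate early genes 25900 to 41900 and 1510 to 3530. Summed CPM was also lower in the activated libraries, without overlap, for 5 smooth muscle and pericyte genes (458 to 1750 in quiescent, 167 to 374 in activated), 4 Schwann cell genes (254 to 604 and 57.8 to 200) and 6 blood cell genes (74.1 to 282 and 38.4 to 59.3), and it overlapped for 6 fibroadipogenic progenitor genes (286 to 2970 and 250 to 730). None of the endothelial, fibre or immediate early genes was at 0 in any library. Xist stood at 1.2 to 7.17 CPM in quiescent and 451 to 817 in activated libraries, and 4 Y-linked genes together at 358 to 660 and 0 to 2.51, so that the cell state and the sex of the mice cannot be told apart. The part of these differences in the results on activation was not tested. In bulk RNA, fewer cells of a type and less RNA per cell cannot be told apart.

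Levels were first compared between the genes in WT quiescent cells, per kilobase of exon (CPM per kb, mean ± SD, n = 4). Per1 was the most abundant at 90.8 ± 9.69 CPM per kb, followed by Nr1d1 at 50.6 ± 12.1 and Nr1d2 at 28.3 ± 5.85. Cry2 (18.8 ± 2.93), Cry1 (18 ± 6.12), Per2 (10.9 ± 1.08) and Clock (8.14 ± 1.87) came next. Dbp (5.29 ± 2.8), Arntl (2.72 ± 1.28) and Per3 (1.82 ± 0.494) were the lowest. Neighbors in this order overlapped in the range of their libraries, except Per1 (lowest library 83.2 CPM per kb) with Nr1d1 (highest 60.6) and Cry1 (lowest 13) with Per2 (highest 11.6). Within WT activated cells (n = 2) the order differed. Nr1d1 led at 73.9 ± 46.7 CPM per kb, Nr1d2 followed at 25 ± 7.23, and Per1 stood at 12.3 ± 7.83, beside Dbp at 10.8 ± 0.0905. Arntl was the lowest at 0.979 ± 0.397 CPM per kb, which rested on 70 counts over both libraries.

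**Figure D1:**
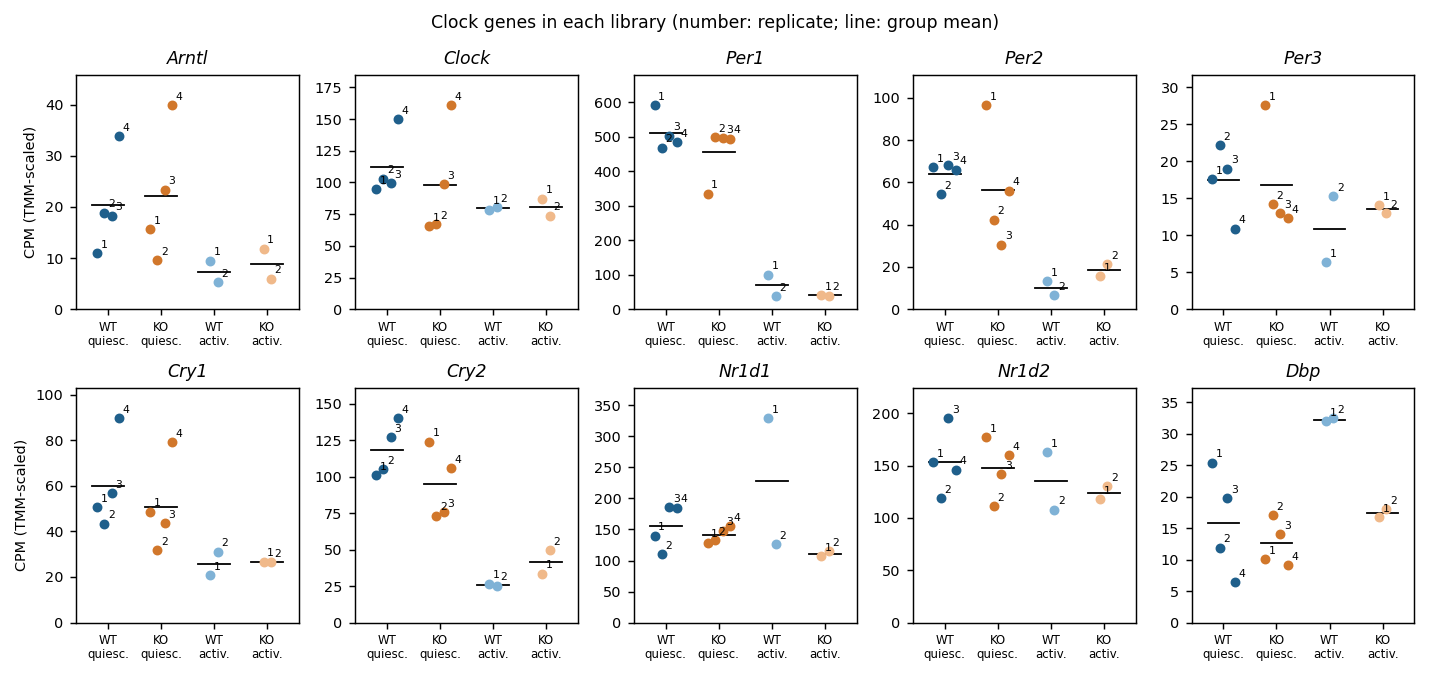
CPM (TMM-scaled, linear axis from 0) of each clock gene in each library, by genotype and state, with points numbered by replicate and a line at the group mean. Per1 stood at 335 to 591 CPM in the 8 quiescent libraries and 38.1 to 100 in the 4 activated libraries, whereas Nr1d2 ranged over 111 to 195 and 108 to 163.

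Activated cells were compared with quiescent cells in each genotype to ask which parts of the clock differ between the states. Some of the repressors fell. Per1, Per2, Cry1 and Cry2 were lower in WT activated cells, and Per1, Per2 and Cry2 were lower in KO activated cells. The activators Arntl and Clock, the NR1D repressors, Per3 and the output gene Dbp did not pass the test in either genotype. Arntl fell just short of the threshold in both genotypes, with a larger fall than Cry1 in WT and than Cry2 in KO. No difference between the genes was tested. Where the libraries of the states are said below to be apart, this describes the values and is no test. The share of all genes that were apart between the states is not given here. In WT, 4 of the 10 genes passed an adjusted p-value under 0.05, all of them lower, when 29.8% of all genes tested passed and 18.3% were lower. In KO, 3 of 10 passed, all lower, when 33.7% of all genes passed and 20.4% were lower. The median log2 fold change over the 10 genes was -0.99 in WT and -0.64 in KO, and over all genes tested it was -0.92 and -0.96.

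Per1, a repressor of ARNTL and CLOCK, had the largest difference of the 10 genes in both genotypes. It stood at 591, 468, 502 and 484 CPM in the WT quiescent libraries and at 100 and 38.1 CPM in the WT activated libraries. In KO it stood at 335, 499, 495 and 494 CPM in quiescent and at 41.4 and 39.2 CPM in activated cells. The states did not overlap in either genotype, with log2 fold changes of -2.87 ± 0.35 (SE, adjusted p = 4.9e-06) in WT and -3.50 ± 0.37 (adjusted p = 7.58e-07) in KO, 7.29-fold and 11.3-fold lower. The 9 immediate early genes measured beside it, which answer tissue dissociation and other stimuli within minutes and include Fos, Jun and Egr1, all fell as well in both genotypes, with median log2 fold changes of -3.11 and -4.57. Their part in the level of Per1 was not tested.

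Per2, the partner repressor, stood at 67.2, 54.5, 68.1 and 65.9 CPM in WT quiescent and 13.2 and 6.57 CPM in WT activated cells. In KO it was spread over 96.5, 42.4, 30.5 and 56.1 CPM in quiescent cells and stood at 15.7 and 21.2 CPM in activated cells. Both activated groups lay below their quiescent group, by 6.18-fold in WT (log2 fold change -2.63 ± 0.43, adjusted p = 9.55e-05) and 3.05-fold in KO (-1.61 ± 0.39, adjusted p = 0.00376). Without KO activated 1 the KO difference was -1.40 with an adjusted p of 0.0572. Per3, the remaining Per gene, did not pass in either genotype. It stood at 17.6, 22.2, 19 and 10.9 CPM in WT quiescent, 27.6, 14.2, 13 and 12.3 in KO quiescent, 6.37 and 15.3 in WT activated and 14.1 and 13 in KO activated libraries, and the states overlapped in both genotypes (log2 fold changes -0.75 ± 0.43, adjusted p = 0.186, and -0.31 ± 0.41, adjusted p = 0.556).

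The cryptochromes are the main repressors of ARNTL and CLOCK. Cry2 stood at 101, 105, 127 and 140 CPM in WT quiescent and at 26.5 and 25.4 CPM in WT activated cells. In KO it stood at 124, 73.4, 75.6 and 106 CPM in quiescent and at 33.6 and 49.5 CPM in activated cells. The states were apart in both genotypes, by 4.56-fold in WT (log2 fold change -2.19 ± 0.31, adjusted p = 2.09e-05) and 2.28-fold in KO (-1.19 ± 0.29, adjusted p = 0.00343). Without KO activated 1, the KO value was -0.93 (adjusted p = 0.105). Cry1 stood at 50.7, 43.3, 56.7 and 89.6 CPM in WT quiescent and at 20.7 and 31.1 CPM in WT activated cells, and at 48.7, 31.7, 43.7 and 79.2 CPM in KO quiescent and 26.7 and 26.5 CPM in KO activated cells. Here too the libraries of the states were apart. Cry1 was 2.35-fold lower in WT (-1.23 ± 0.37, adjusted p = 0.0162), and the KO value fell just short of the threshold (-0.94 ± 0.36, adjusted p = 0.0515). The WT call of Cry1 was lost without WT activated 1 (-0.88, adjusted p = 0.254), and the KO value passed under 7 other settings, with adjusted p of 0.0229 to 0.0495 for Cry1. The ratio of Cry1 to Cry2 counts within a library, which needs no scaling, was 0.393 to 0.747 in the 8 quiescent libraries. It was 0.784 and 1.22 in the WT and 0.794 and 0.535 in the KO activated libraries, and this ratio was not put to a test.

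The activators of the loop did not pass the test. Arntl stood at 10.9, 18.9, 18.3 and 33.8 CPM in WT quiescent and at 9.48 and 5.25 CPM in WT activated cells, which were apart. In KO it stood at 15.7, 9.56, 23.4 and 39.9 CPM in quiescent and at 11.8 and 5.93 CPM in activated cells, and the 2 states overlapped there. The log2 fold changes were -1.42 ± 0.54 (adjusted p = 0.055) and -1.33 ± 0.53 (adjusted p = 0.0617), just short of the threshold. DESeq2 gave -1.38 (adjusted p = 0.0297) and -1.28 (adjusted p = 0.0371) for Arntl. In all, the WT value of Arntl passed under 7 other settings (adjusted p of 0.00338 to 0.0459), DESeq2 and edgeR without a filter on low counts among them, and the KO value under 5 (0.00496 to 0.0487). Clock, the partner of ARNTL, stood at 94.8, 103, 99.6 and 150 CPM in WT quiescent and at 78.6 and 80.6 CPM in WT activated cells, and at 65.5, 67.1, 98.6 and 161 CPM in KO quiescent and 87.3 and 73.7 CPM in KO activated cells. The states of Clock were apart in WT and overlapped in KO. Its log2 fold changes were -0.49 (95% interval -1.18 to 0.20) and -0.28 (-0.96 to 0.40), which leaves room for changes in either direction.

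The NR1D receptors did not pass the test in either genotype. Nr1d2 stood at 153, 119, 195 and 146 CPM in WT quiescent, 177, 111, 142 and 160 in KO quiescent, 163 and 108 in WT activated and 118 and 130 in KO activated libraries. The states overlapped in both genotypes, and the 95% intervals of its log2 fold change ran from -0.74 to 0.39 in WT and from -0.81 to 0.32 in KO. Nr1d1 stood at 140, 110, 186 and 185 CPM in WT quiescent and at 329 and 126 CPM in WT activated cells, and at 129, 133, 148 and 155 CPM in KO quiescent and 107 and 115 CPM in KO activated cells. WT activated 1 alone stood above the quiescent range, and it set the direction of the WT value, which was 0.55 (adjusted p = 0.171) with both libraries, -0.23 (adjusted p = 0.665) without WT activated 1 and 1.14 (adjusted p = 0.0134) without WT activated 2. WT activated 1 also had the highest summed endothelial (647 CPM) and immediate early (3530 CPM) values of the 4 activated libraries. It was highest as well for fibroadipogenic progenitor (730 CPM) and smooth muscle and pericyte genes (374 CPM). It was lowest for fibre (5490 CPM), satellite cell (2350 CPM) and blood cell genes (38.4 CPM), and neither for Schwann cell genes. The part of these differences in Nr1d1 was not tested.

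Dbp, a D-box binding activator of clock output genes, stood at 25.4, 11.9, 19.7 and 6.36 CPM in WT quiescent and at 32 and 32.4 CPM in WT activated cells. In KO it stood at 10.1, 17, 14 and 9.11 CPM in quiescent and at 16.7 and 18 CPM in activated cells. Both WT activated libraries lay above every WT quiescent library, and the KO states overlapped. The log2 fold change was 1.02 ± 0.40 in WT (adjusted p = 0.0611) and 0.47 ± 0.41 in KO (adjusted p = 0.368), neither of which passed. The WT value passed under 4 other settings, with adjusted p of 0.0182 to 0.0456, DESeq2 among them (1.09, adjusted p = 0.0433). Dbp shares 18% of its exon bases with Sphk2 on the opposite strand, and Nr1d1 shares 8.55% with Thra. Whether the counting used strand is not given in the sources used here, so reads in those stretches cannot be told apart.

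**Figure D2:**
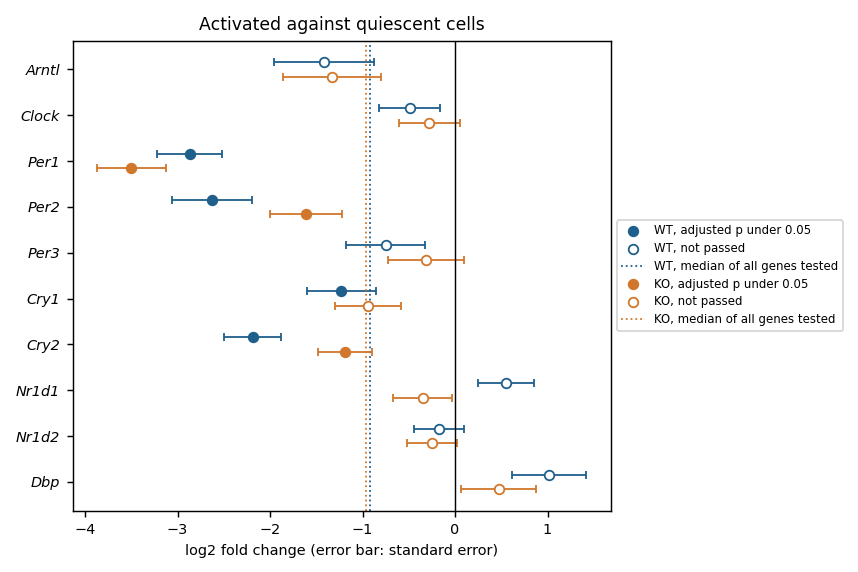
Log2 fold change of each clock gene in activated against quiescent cells (points, with bars of 1 SE), for WT and KO, with filled points for an adjusted p under 0.05 and dotted lines at the median of all genes tested (-0.92 and -0.96). Per1, Per2 and Cry2 were filled in both genotypes and Cry1 in WT only, and Dbp lay to the right of 0 in both.

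KO cells were compared with WT cells in each state to ask whether the loss of Cxcr4 moved the clock genes. None of the 10 genes differed in the quiescent state by edgeR (0 of 10, when 0.0155% of all genes tested passed), 0 had an unadjusted p under 0.05 (1.74% of all genes did), and DESeq2 called 0 as well. The log2 fold changes lay between -0.34 for Dbp and 0.11 for Arntl, with adjusted p-values of 1 throughout. The data bound these differences unevenly. The 95% interval of the log2 fold change ran from -0.51 to 0.40 for Nr1d2 and from -0.78 to 0.13 for Cry2, but from -0.69 to 0.92 for Arntl and from -1.03 to 0.36 for Dbp, whose libraries were spread over a wider range.

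The activated cells likewise gave 0 of 10 calls by edgeR (0.0504% of all genes tested passed) and 0 by DESeq2, and 2 genes had an unadjusted p under 0.05, as did 8.37% of all genes. Nr1d1 was at 329 and 126 CPM in WT and 107 and 115 CPM in KO, a log2 fold change of -1.04 ± 0.36 (unadjusted p = 0.00967, adjusted p = 0.397). Per1 was at 100 and 38.1 CPM in WT and 41.4 and 39.2 CPM in KO, -0.80 ± 0.36 (unadjusted p = 0.0388, adjusted p = 0.582). Both values rested on WT activated 1. Without it they were -0.28 (adjusted p = 1) for Nr1d1 and -0.01 for Per1, and without WT activated 2 the value of Nr1d1 was -1.65 and passed (adjusted p = 0.024), with WT then represented by 1 library that was assumed to vary like the others. Dbp (32 and 32.4 CPM in WT, 16.7 and 18 in KO) and Per2 (13.2 and 6.57 in WT, 15.7 and 21.2 in KO) were apart between the genotypes without passing, at -0.89 ± 0.49 (adjusted p = 0.657) and 0.84 ± 0.45 (adjusted p = 0.653). Cry2, at 26.5 and 25.4 CPM in WT and 33.6 and 49.5 in KO, was apart as well (0.68 ± 0.33, unadjusted p = 0.0505, adjusted p = 0.595). With Nr1d1 these made 4 of the 10 genes whose groups did not overlap, 2 higher and 2 lower in KO, when 24.7% of all genes tested were apart between these groups of 2. The effect of the KO did not differ between the states for any of the 10 genes by edgeR (0 of 10, as for 0% of all genes tested), with 0 by DESeq2 and 1 unadjusted p under 0.05 (6.59% of all genes), for Cry2 (difference of log2 fold changes 1.00 ± 0.39, adjusted p = 0.652).

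**Figure D3:**
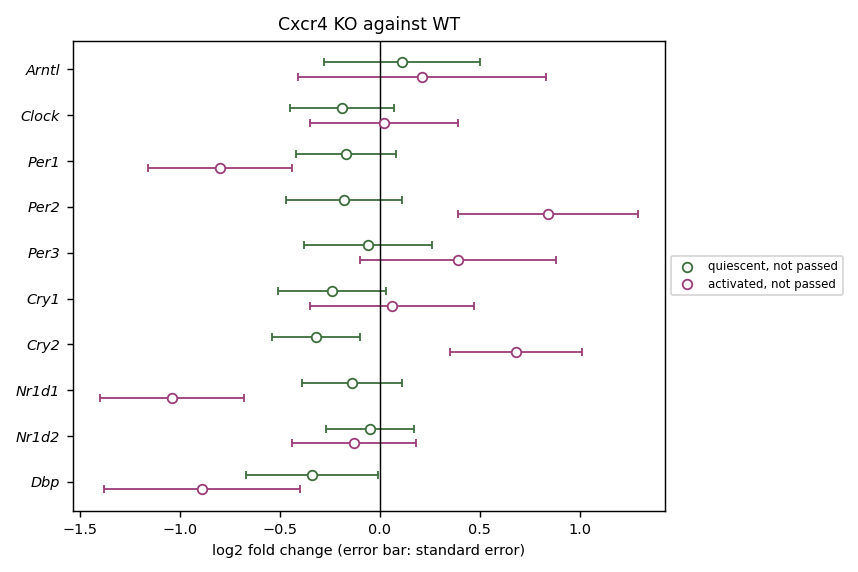
Log2 fold change of each clock gene in KO against WT (points, with bars of 1 SE) in quiescent and activated cells, with open points for an adjusted p of 0.05 or more. All 20 points were open, with quiescent values from -0.34 to 0.11 and activated values from -1.04 to 0.84.

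The clock genes also varied between fresh libraries of the same genotype. Replicate 4 of both genotypes had the highest Arntl (33.8 and 39.9 CPM), Clock (150 and 161 CPM) and Cry1 (89.6 and 79.2 CPM) and the lowest Dbp (6.36 and 9.11 CPM) of its genotype. WT quiescent 1 and KO quiescent 2 stood at the other end for Arntl (10.9 and 9.56 CPM), with the highest Dbp (25.4 and 17 CPM). The ratio of Arntl to Dbp counts, taken within a library, was 0.43, 1.59, 0.929 and 5.32 in the WT and 1.56, 0.562, 1.67 and 4.37 in the KO quiescent libraries. The activated libraries had ratios of 0.296 and 0.162 in WT and 0.708 and 0.329 in KO, in the lower part of that range or under it. The same libraries also differed elsewhere. Replicate 4 of both genotypes had the lowest summed fibre markers (232 and 309 CPM) and the highest summed satellite cell markers (6320 and 6640 CPM) of its genotype. Myod1 and Des weigh most in the satellite cell sum. Myod1 spanned 813 to 3100 CPM in WT and 1030 to 2950 in KO quiescent libraries, and Des 830 to 1730 and 1110 to 1770. Pax7 spanned 303 to 482 and 181 to 290 CPM. The part of these differences in the clock genes was not tested.

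Correlations of log2 CPM were taken over the 8 quiescent libraries for all 45 pairs of the 10 genes. Arntl and Clock had r = 0.86 (rho = 0.86, exact permutation p = 0.0057 and 0.0107, adjusted p = 0.189 and 0.314). Arntl and Dbp had r = -0.76 (rho = -0.71, exact permutation p = 0.0315 and 0.0576, adjusted p = 0.284 and 0.432). Clock and Cry1 had r = 0.84 (rho = 0.6, exact permutation p = 0.0141 and 0.132, adjusted p = 0.189 and 0.486), and Per2 and Cry2 had r = 0.82 (rho = 0.69, exact permutation p = 0.012 and 0.0694, adjusted p = 0.189 and 0.446). None of the 45 pairs passed the adjustment, and these pairs had some of the largest r among them. Without the 2 libraries farthest from the median of the first gene, r was 0.68, -0.79, 0.93 and 0.85 for these pairs. With each genotype centred on its own mean, r was 0.91, -0.76, 0.83 and 0.82. These values come from the same libraries and are no separate test. Leaving out the farthest libraries took Arntl and Cry1 from r = 0.81 to 0.59, and Cry1 and Dbp from -0.6 to 0.18. The permutations treat the 8 libraries as independent, while WT and KO libraries of the same replicate number had similar total counts (17532019 and 17238391, 12775593 and 13075208, 23058947 and 22897189, 22785815 and 23717013).

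**Figure D4:**
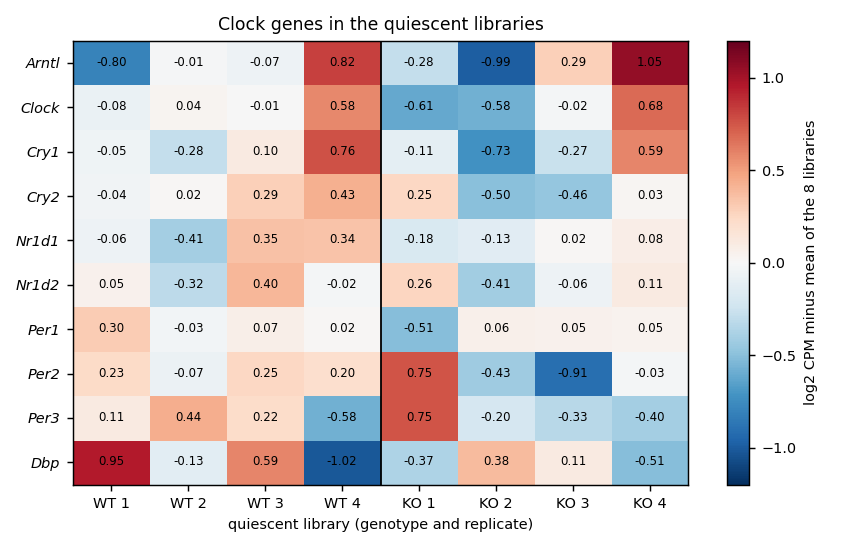
Log2 CPM of each clock gene minus its mean over the 8 quiescent libraries, by genotype and replicate, with red above and blue below the mean. Arntl was 0.82 and 1.05 above its mean in replicate 4 of WT and KO, and Dbp stood at -1.02 and -0.51 there.

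The genes whose log2 CPM followed a clock gene most closely over the 8 quiescent libraries were taken from 8992 genes with an average log2 CPM over 3. For Dbp they were BC017158 (r = 0.977), Mypn (0.939) and Septin6 (0.92), and for Arntl they were Fto (0.987), Surf4 (0.983) and Fyn (0.983). These are the largest of many values over 8 libraries and serve as a description. Other clock genes ranked lower, with Clock at rank 482 for Arntl and Per1 at rank 587 for Dbp, while Dbp stood near the bottom for Arntl, at rank 8795.

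Of 23 further genes of the clock and its output, 13 passed in WT activated cells (2 higher, 11 lower) and 16 in KO activated cells (3 higher, 13 lower). Of all genes tested, 29.8% passed in WT and 33.7% in KO, with 18.3% and 20.4% lower. The median log2 fold change of this list was -0.98 in WT and -1.11 in KO, beside -0.92 and -0.96 over all genes tested. Among them, 13 genes passed in both genotypes, 11 lower and 2 higher. The genes that fell included regulators on both sides of the loop.

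Npas2, which can stand in for CLOCK as the partner of ARNTL, stood at 21, 15.5, 21.1 and 29.3 CPM in WT quiescent and 15.1, 19.6, 24.9 and 34 CPM in KO quiescent cells. It was nearly absent after culture, with 5 and 0 counts (0.817 and 0 CPM) in WT and 1 and 4 counts (0.257 and 0.913 CPM) in KO activated libraries. The log2 fold changes of Npas2 were -5.24 ± 0.64 (adjusted p = 4.23e-06) and -5.26 ± 0.63 (adjusted p = 2.88e-06), while Clock itself did not pass. Rorb, an activator of Arntl, had 230 counts over the WT and 195 over the KO quiescent libraries and 0 in every activated library, which against a limit of 3 counts over the group is at least 8.69-fold lower in WT and at least 7.01-fold lower in KO. Such limits cover counting error only. The WT call of Rorb was lost without WT activated 1 (adjusted p = 0.0596).

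Nfil3, a repressor at D-boxes that opposes DBP, stood at 274 to 364 CPM in WT quiescent cells and 259 to 357 CPM in KO quiescent cells. It stood at 55.1 and 51.2 CPM in WT and 53.2 and 42 CPM in KO activated cells, well apart from the quiescent libraries. It fell 5.84-fold in WT (log2 fold change -2.55 ± 0.27, adjusted p = 1.05e-06) and 6.13-fold in KO (-2.62 ± 0.27, adjusted p = 7.19e-07).

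Timeless, a replication fork protein that has been tied to the clock, stood at 74.1, 74.9, 40.8 and 38.7 CPM in WT quiescent and 129, 47.5, 78.5 and 24.5 CPM in KO quiescent cells. It was at 21.4 and 21 CPM in WT activated and 4.37 and 6.62 CPM in KO activated cells, on 131, 48, 17 and 29 counts. It fell by 1.43 ± 0.49 on the log2 scale in WT (adjusted p = 0.0341) and by 3.66 ± 0.58 in KO (adjusted p = 6.37e-05). The WT call of Timeless was lost without WT quiescent 1 (adjusted p = 0.0779), WT quiescent 2 (0.079), WT activated 1 (0.165) or WT activated 2 (0.145).

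The 2 genes that rose in both genotypes are repressors of ARNTL and CLOCK. Bhlhe41 (DEC2) stood at 19.2, 11, 12.1 and 13.1 CPM in WT quiescent and 16.5, 11.4, 14.2 and 10.5 CPM in KO quiescent cells. It was at 58.5 and 51.7 CPM in WT and 54.2 and 104 CPM in KO activated cells, 3.98-fold (adjusted p = 3.88e-05) and 5.99-fold (adjusted p = 1.72e-06) higher. Ciart (CHRONO) stood at 3.65, 3.41, 2.94 and 3.03 CPM in WT quiescent and 12.4 and 16.6 CPM in WT activated cells, 4.42-fold higher (adjusted p = 0.000506). In KO, Ciart stood at 5.16, 6.35, 3.74 and 4.67 CPM in quiescent and at 6.16 and 17.8 CPM in activated cells, which overlapped. Its KO call (2.42-fold, adjusted p = 0.0219) rested on KO activated 2, without which the log2 fold change was 0.33 (adjusted p = 0.661), and it was also lost without KO quiescent 3 (1.16, adjusted p = 0.0514). Bhlhe41 shares 19% of its exon bases with Gm43909 on the opposite strand. Among the repressors, Per1, Per2 and Cry2 fell in both genotypes and Bhlhe41 rose in both, so they did not move as a block. Ciart rose in WT, while its KO call rested on KO activated 2. The related gene Bhlhe40, named here after its values were seen, went the other way from Bhlhe41. Bhlhe40 stood at 343 to 417 CPM in WT quiescent and 65.7 to 138 CPM in WT activated libraries. In KO it stood at 293 to 423 CPM in quiescent and 42.1 to 61.1 CPM in activated libraries.

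None of these 23 genes differed between KO and WT by edgeR or DESeq2 in either state. In quiescent cells 0 had an unadjusted p under 0.05, when 1.74% of all genes did. In activated cells 4 did, when 8.37% of all genes did, namely Bhlhe40 (log2 fold change -0.99, adjusted p = 0.381), Timeless (-1.94, adjusted p = 0.311), Usp2 (0.69, adjusted p = 0.591) and Tsc22d3 (1.27, adjusted p = 0.275), named here after their values were seen.

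**Figure D5:**
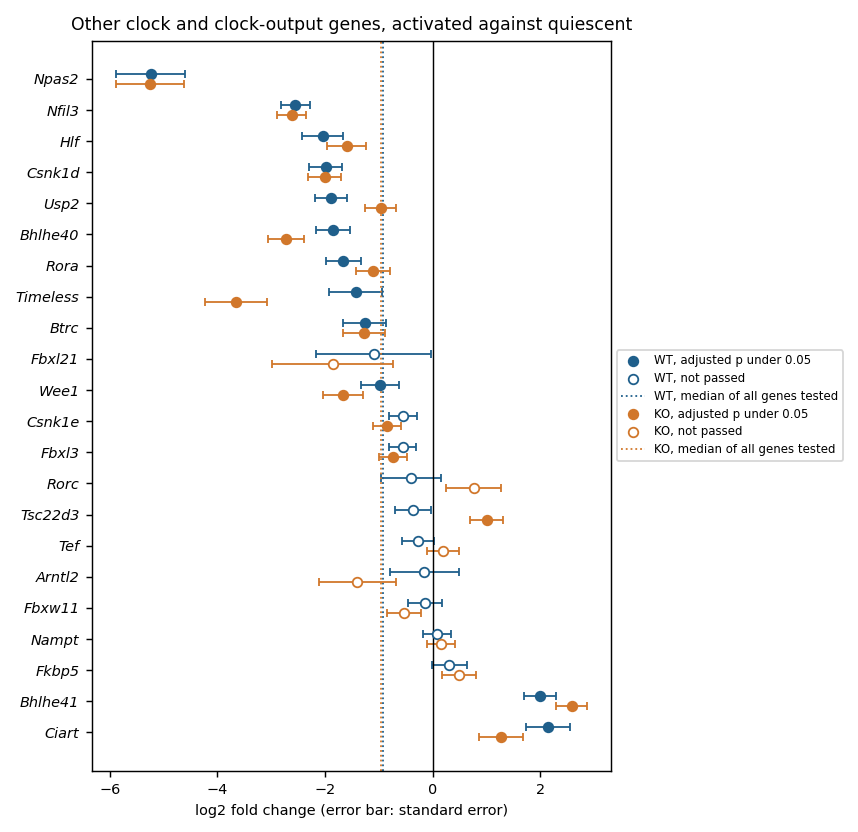
Log2 fold change in activated against quiescent cells (points, with bars of 1 SE) for 22 of the 23 further clock and clock-output genes in WT and KO, sorted by the WT value, with filled points for an adjusted p under 0.05 and dotted lines at the median of all genes tested. Rorb is left out because it had 0 counts in every activated library. Npas2 lay farthest to the left at -5.24 and -5.26, and Bhlhe41 and Ciart lay to the right, at 1.27 to 2.58.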

How the data were processed

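Total RNA of sorted cells was sequenced after NEBNext Ultra library preparation. The authors trimmed the reads with Trim Galore 0.6.0, mapped them to GRCm38 with STAR 2.7.2a and counted them per gene with Rsubread on GENCODE genes, and they deposited raw counts for 12 libraries. Strand and multimapper settings are not given in the sources used here. Deposited FPKM values, 1 per group, were not used. Groups came from the sample labels, which do not say whether libraries came from separate mice, so p-values measure the spread between these libraries.

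Genes were filtered with filterByExpr and scaled by TMM, and 1 model of 4 groups was fitted to all 12 libraries with the quasi-likelihood test of edgeR 4.0.16 (R 4.3.3), with Benjamini-Hochberg adjustment over 25771 genes and a threshold of 0.05. Log2 CPM used a prior count of 2. Intervals come from the same fit. Exon lengths and overlaps were taken from GENCODE M21 (GRCm38), which is not the authors' release. Alternatives, among them DESeq2 1.42.0, are given in the closing section, and the scripts were tested on simulated data. Replicate numbers were not used as pairs, since the labels do not tie them to a shared source. The 10 genes and all gene lists were chosen with earlier results of these data known. All 10 are named with values, as are the 4 highest and 4 lowest of the further clock genes that passed in activated cells of both genotypes (only 2 were higher), the 3 genes most like Dbp and Arntl, and Cxcr4.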

Additional observations from a re-analysis of the deposited data

Results flagged for a closer look

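Among the 20 groups of 4 quiescent libraries (10 genes in 2 genotypes), 4 held a library far from the other 3 by Dixon's test, where chance gives about 1 in 20. The genes share the same libraries, so the groups are not independent, and no excess over chance can be read from this count. Clock was at 150 CPM in WT quiescent 4, with the next library at 103. Per1 was at 335 CPM in KO quiescent 1, with the next at 494. Per2 was at 54.5 CPM in WT quiescent 2, with the next at 65.9. Per3 was at 27.6 CPM in KO quiescent 1, with the next at 14.2. KO quiescent 1 thus appeared for both Per1 (low) and Per3 (high), and it also had the highest Per2 of the 8 quiescent libraries (96.5 CPM) and the lowest ratio of Per1 to Per2 counts (3.47, against 7.35 to 16.2 in the other quiescent libraries).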

How the results depend on the processing

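The depth of the activated libraries and their number (2 a group) limit every comparison that uses them. Where 1 activated library was left out, its group kept 1 library, which was assumed to vary like the others. No scaling moved the median of all genes by over 0.07 on the log2 scale. The number of clock genes called stayed at 0 in KO against WT under all alternatives but 1, and at 3 to 6 in activated against quiescent WT cells with each library left out. In KO cells it was 3, against 5 with no filter on low counts, 5 by DESeq2 and 1 to 5 with each library left out (1, Per1, without KO activated 1). In KO against WT activated cells it was 0 to 1 (Nr1d1, without WT activated 2). The cause of these changes was not tested.

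Of the 23 further clock genes, 0 to 1 was called in KO against WT activated cells with each library left out (Bhlhe40, without WT activated 2) and 1 (Timeless) with no filter. The difference of KO effects gave 1 (Timeless) with no filter. In activated KO cells 10 to 17 were called, with the lowest count without KO activated 2.

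Over all genes, 4 were called in KO against WT quiescent cells, 50 with no filter and 3 to 7 with each library left out. In activated cells 13 were called, 8 with DESeq2 size factors, 334 with no filter, 169 by DESeq2, 3 on the compared groups alone and 0 to 211 with each library left out (0 without WT activated 1, 211 without WT activated 2). The difference of KO effects gave 0, 170 with no filter, 53 by DESeq2, 1 without CT010467.1 in the library size and 0 to 82 with each library left out. Activation gave 7674 in WT (4524 to 8026) and 8693 in KO (5066 to 8780).

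The labels do not say that a replicate number marks a shared batch, and the numbers were not used as pairs. Deviations of same-numbered WT and KO libraries from their group means correlated at 0.24, 0.16, -0.27 and 0.59 in quiescent cells. In activated cells they correlated at -0.07 and -0.07. With 2 libraries a group the deviations are mirror images, so the activated values are equal by construction. Of the quiescent pairs 3 of 4 were positive, and not every library correlated best with its own number. Total counts were similar within each quiescent number, and whether same-numbered libraries share a batch is not known. With a replicate block 23 genes were called in KO against WT activated cells and 6 in the difference of KO effects, and the calls of the clock genes stayed at 0, 0, 4, 3 and 0. The block took the log2 fold change of Arntl in KO against WT quiescent cells to 0 and turned that of Clock in activated KO cells to 0.12 (adjusted p = 0.713), and Ciart there lost its call (1.01, adjusted p = 0.0845).

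Other changes of direction concerned values that had not passed. In KO against WT activated cells, Clock turned to -0.04 with DESeq2 size factors and by DESeq2 and to -0.03 on the compared groups alone, and Cry1 to -0.01 under these settings. With each library left out, KO against WT in quiescent cells ranged from -0.33 to 0.46 for Arntl, -0.57 to 0.02 for Per2, -0.41 to 0.08 for Per3, -0.54 to 0.01 for Cry1 and -0.16 to 0.08 for Nr1d2. In activated cells it ranged from -0.38 to 0.66 for Arntl, -0.13 to 0.08 for Clock, -0.27 to 1.01 for Per3, -0.32 to 0.28 for Cry1 and -0.47 to 0.11 for Nr1d2. Activation ranged from -0.23 to 1.14 for Nr1d1 and -0.43 to 0.15 for Nr1d2 in WT, and from -0.42 to 0.07 for Clock and -0.42 to 0.05 for Per3 in KO. The difference of KO effects ranged from -0.5 to 0.55 for Arntl, -1.23 to 0.15 for Per1, -0.2 to 1.08 for Per3, -0.07 to 0.59 for Cry1 and -0.41 to 0.17 for Nr1d2.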
